A study of Mus musculus with 20 samples.

Results

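The genes of the cytosolic ribosome were followed through both conversions between embryonic stem (ES) cells and extraembryonic endoderm (XEN) cells of the mouse. A gene was taken as a member when its symbol began with RPL or RPS and a digit, or was RPLP0, RPLP1, RPLP2 or RPSA, and pseudogene columns (-PS) and the RPS6K kinases were left out. This gave 87 of the 22936 gene symbols in the series, of which 53 carry large subunit and 34 small subunit names. In all, 77 are canonical ribosomal protein genes, and the other 10 are paralogs, retrogenes or a binding partner (Rpl3l, Rpl6l, Rpl7l1, Rpl10l, Rpl22l1, Rpl36al, Rpl39l, Rps27l, Rps27rt and Rps19bp1). The members lie on 19 chromosomes, 4 of them on X (Rpl10, Rpl36a, Rpl39 and Rps4x), and all 87 passed the filter on low counts.

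Single-cell RNA-seq by 10x Chromium 3' counting was made at 10 conditions, with 2 libraries each. The first conversion used 1 line of XEN cells, 3F-4, homozygous for Oct4-GFP (Tg/Tg), for the transactivator M2rtTA at R26 and for TetO-OKSmCh at Col1A1, in which doxycycline induces Oct4, Klf4, Sox2 and mCherry through that transactivator, which is always on. XEN cells grown for 7 days on feeder fibroblasts in the reprogramming medium, which holds ascorbic acid and a GSK3 inhibitor, but without doxycycline were the start. Cells after doxycycline in this medium for 7 days (day 7), 14 days (day 14) or 28 days (day 28) were the intermediates. XEN-iPS cells, sorted during reprogramming and then grown in serum/LIF on feeders, were the end. By the study's methods, cells for reprogramming first had 2 days of doxycycline in XEN medium and were sorted for mCherry before plating. The second conversion used 1 ES cell line, iGata4-Gata6-Venus (Col1A1 TetO-Gata4/+, R26 M2rtTA/+, Gata6 H2B-Venus/+), at 0 (ES), 9h, 24h and 48h of doxycycline, and as iXEN cells, which had 4 days of doxycycline and then 7 days without it. The day 7, day 14, day 28 and 9h libraries were mixtures recombined from sorted subpopulations, so their composition was set by the sort.

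A eukaryotic ribosome holds a small subunit, which reads the mRNA, and a large subunit, which joins the amino acids, and nearly every ribosomal protein is present once in each ribosome. Ribosomal protein mRNAs are among the most abundant mRNAs of dividing cells. Most of them are TOP mRNAs, which begin with a C and a run of pyrimidines that links their translation to mTOR signalling, and a few members have tissue-restricted paralogs that can take the place of the common protein.

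Sequences around the annotated start of transcription are shown for members that recur in the results, since the start is where a TOP mRNA is recognised. RefSeq (GRCm38.p6) gave a start for 66 of the 87 members. Each line holds the 10 bases before the annotated start and the 20 bases from it, 5' to 3' on the strand of the gene, and capitals mark an unbroken run of C and T that begins at the annotated start with a C and holds at least 4 more pyrimidines.
Rps6 (chr4:86857348-86857377, minus strand): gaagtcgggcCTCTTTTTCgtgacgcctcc
Rplp2 (chr7:141447641-141447670, plus strand): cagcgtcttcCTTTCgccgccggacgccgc
Rps27 (chr3:90213629-90213658, minus strand): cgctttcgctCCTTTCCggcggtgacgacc
Rps27rt (chr9:114982720-114982749, minus strand): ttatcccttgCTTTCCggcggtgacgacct
Rps27l (chr9:66946076-66946105, plus strand): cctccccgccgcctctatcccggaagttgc
Rpl10 (chrX:74270806-74270835, plus strand): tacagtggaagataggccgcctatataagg
Rpl10l (chr12:66284382-66284411, minus strand): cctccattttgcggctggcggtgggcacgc
Rpl39 (chrX:37085203-37085232, minus strand): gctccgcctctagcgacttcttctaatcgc
Rpl39l (chr16:10170218-10170247, plus strand): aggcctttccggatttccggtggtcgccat
Rpl22l1 (chr3:28805498-28805527, plus strand): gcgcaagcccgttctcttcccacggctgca

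A C followed by 4 pyrimidines at the annotated start was found for 13 (22.8%) of the 57 canonical members with a start and for 1 of the 9 other members, against 2.51% of all 32851 starts in the table. The letters CTTTC, on the strand of the gene within the same 30 bases, were found for 14 canonical members (24.6%) and 3.74% of all starts. CCGGAAG on either strand of the 300 bases around the start (250 before it and 50 after) was found for 24 canonical members (42.1%) and 8.86% of all starts. These are matches of letters in fixed windows, and an annotated start that lies a few bases from the true one hides a run. Members were counted by gene, with 78 starts for 66 genes, and the background by start, so the percentages have unlike units. Over the 300 bases around the start, Rps27 and Rps27rt share an unbroken run of 38 bases.

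The data held 107409 cells after filtering, with 45446690 to 126240036 UMIs (unique molecular identifiers, 1 per captured mRNA) in a library. In total, 10520 of 123148 barcodes occurred in more than 1 library. Before any value was summed, clusters led by fibroblast markers were removed from the 3F-4 libraries and 1 differentiating cluster from the ES libraries, and 3829 of the removed cells came from XEN-iPS replicate 2. By fixed marker lists, the cells kept bore their labels: 98.1% and 97.0% of XEN cells and 90.5% and 95.5% of iXEN cells fell on the endoderm side, and 96.0% and 99.3% of XEN-iPS cells and 99.5% and 99.9% of ES cells on the pluripotent side. The 2 libraries of a condition are described as technical duplicates by the study, so tests measure only the spread between these libraries. Some also differ in sequencing project, called a run here from the number in the deposited files: run 1 holds XEN, day 28 and ES, run 2 day 7, day 14, iXEN and replicate 1 of XEN-iPS, 24h and 48h, run 3 9h and replicate 2 of 24h and 48h, and run 4 XEN-iPS replicate 2. Where a comparison crosses runs, run and condition cannot be told apart.

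Ribosomal protein transcripts took 25.8% to 45.1% of all UMIs of a library, with a lower share in the endoderm than in the pluripotent libraries. It was 31.5 and 29.8% in XEN libraries, 35.9 and 35.7% at day 7, 38.1 and 34.4% at day 14 and 34.4 and 35.9% at day 28, and 36.5 and 38.0% in XEN-iPS libraries. In the other direction it was 37.2 and 38.6% in ES libraries, 37.2 and 37.5% at 9h and 42.2 and 40.7% at 24h. It reached 45.1 and 41.9% at 48h, while iXEN libraries had 25.8 and 27.1%. All 4 pluripotent libraries (36.5% to 38.6%) lay above all 4 endoderm libraries (25.8% to 31.5%). Their means were 37.6% ± 0.92 and 28.6% ± 2.59 (SD, n = 4 libraries each), a 1.32-fold difference. Each mean joins 2 conditions from 2 lines, with 2 technical duplicates of each, so the SD mixes lines with duplicates. At day 7 and day 14 the share already overlapped that of day 28, and 24h and 48h lay above both ES and iXEN. With the removed clusters kept, XEN-iPS replicate 2 fell to 34.2%, still above every endoderm library. A share is set by all the other RNA in the library, so more ribosomal protein mRNA per cell and less of other mRNA cannot be told apart.

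Both subunits took part. Large subunit members went from 18.5 and 17.3% in XEN to 20.3 and 22.1% in XEN-iPS libraries, and small subunit members went from 13.1 and 12.5% to 16.2 and 15.9%. In the ES line the large subunit share was 21.2 and 21.8% in ES and 14.4 and 14.99% in iXEN libraries, and the small subunit share 16.1 and 16.9% and 11.4 and 12.1%. The ratio of large to small subunit UMIs did not separate the states. It was highest in XEN (1.42 and 1.39) and lowest at 48h (1.22 and 1.23), while the duplicates of XEN-iPS, from runs 2 and 4, read 1.26 and 1.39, about as far apart as the conditions. On the log2 scale the pluripotent share exceeded the endoderm share by 0.28 within the 3F-4 line and by 0.52 within the ES line.

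**Figure D1:**
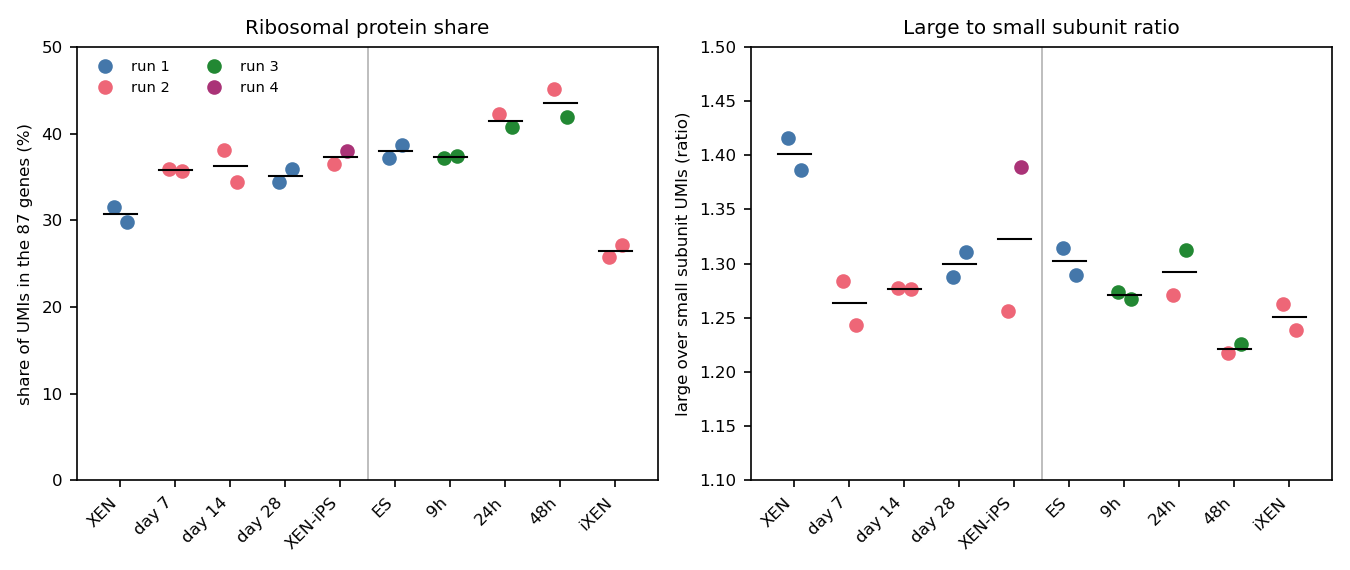
Share of UMIs in the 87 ribosomal protein genes (left, percent) and ratio of large to small subunit UMIs (right, axis from 1.1) by condition, with 1 point per library coloured by run and a bar at the mean of the 2 libraries; the grey line divides the 3F-4 line from the ES line. The share is lowest in iXEN and XEN and highest at 48h, and the ratio has no such order.

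Gene by gene, the members called between the pluripotent and endoderm states were nearly all higher in the pluripotent state. In a model of library sums (edgeR, Benjamini-Hochberg over all 16754 genes tested), 53 of the 87 members were higher in ES and XEN-iPS cells than in XEN and iXEN cells and 1 was lower, beside 32.4% of all genes tested higher and 32.2% lower. The median log2 difference over the members was 0.46, against 0.02 over all genes tested, and 32 of 53 large subunit and 21 of 34 small subunit members were called higher. Most differences of the members were under 2-fold, and 4 calls were over it, a count given without that of all genes tested. Every pluripotent library lay above every endoderm library for 20 members, beside 19.0% of all genes tested, and for none did every one lie below, beside 22.6%. The part of the members with every pluripotent library above was near that of all genes.

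Among the large subunit proteins, Rpl12 sits at the base of the ribosomal stalk, where translation factors bind. It was at 3468 and 2654 CPM (UMI counts scaled to a common library total by edgeR's TMM, used for every library level of a gene here unless stated) in XEN, 3388 and 4951 in XEN-iPS, 5233 and 4949.7 in ES and 1126 and 1919 in iXEN libraries. ES replicate 1 was highest and the iXEN libraries lowest, while the lower XEN-iPS value lay under the higher XEN value, and the log2 difference of pluripotent from endoderm was 1.09 ± 0.19 (SE, edgeR adjusted p = 0.000115). Rpl5, which carries 5S rRNA into the ribosome and also binds Mdm2, was at 569.6 and 432 CPM in XEN, 662 and 727 in XEN-iPS, 1157 and 1289 in ES and 326 and 549 in iXEN libraries. Its pluripotent libraries all exceeded its endoderm libraries, by 0.98 ± 0.21 (SE, edgeR adjusted p = 0.00075) on the log2 scale. Rpl3, a core protein near the peptidyl transferase centre, was at 1365 and 1027 CPM in XEN, 2296 and 1840.4 in XEN-iPS, 2283 and 3063 in ES and 1368 and 1614 in iXEN libraries. The groups did not overlap (log2 difference 0.82 ± 0.16 (SE, edgeR adjusted p = 0.000313)).

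The stalk itself is built on Rplp0 with dimers of Rplp1 and Rplp2. Rplp0 was at 10245 and 11495 CPM in ES and 4113 and 4344 in iXEN libraries, but at 7017 and 6257 in XEN and 5743 and 7676 in XEN-iPS libraries. For Rplp1 the values were 13479 and 12897 in ES, 3822 and 4733 in iXEN, 9716 and 9355 in XEN and 7246 and 8469 CPM in XEN-iPS libraries. Both genes thus separated the states widely in the ES line, while in the 3F-4 line the libraries overlapped for Rplp0 and the XEN-iPS libraries were the lower ones for Rplp1. Rplp2 was at 7347 and 7188 CPM in ES and 3386 and 4208 in iXEN libraries, and at 5681 and 6815 in XEN and 5451 and 5442 in XEN-iPS libraries.

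In the small subunit, Rps6, the protein phosphorylated by S6 kinase, was at 2439.7 and 2269 CPM in XEN, 3874 and 3312 in XEN-iPS, 3524 and 3997 in ES and 2040.2 and 2714 in iXEN libraries. All its pluripotent libraries were above the endoderm ones (log2 difference 0.64 ± 0.14 (SE, edgeR adjusted p = 0.00105)). The X-linked Rps4x showed the same separation, with a difference of 0.78 ± 0.16 (SE, edgeR adjusted p = 0.00044). Rps2 was at 6888 and 7951 CPM in ES and 3143 and 3072 in iXEN libraries, and at 4295 and 4377 in XEN and 4282 and 3171 in XEN-iPS libraries, so that only the ES line had its pluripotent libraries on top. Rpsa, also known as the laminin receptor, was at 4224 and 5199 in ES, 1699.5 and 1758 in iXEN, 3550.0 and 3475 in XEN and 2859 and 4606 CPM in XEN-iPS libraries, and its states overlapped. The single member called lower in the pluripotent state was Rps27l, a call not held under every alternative and described with the paralogs.

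**Figure D2:**
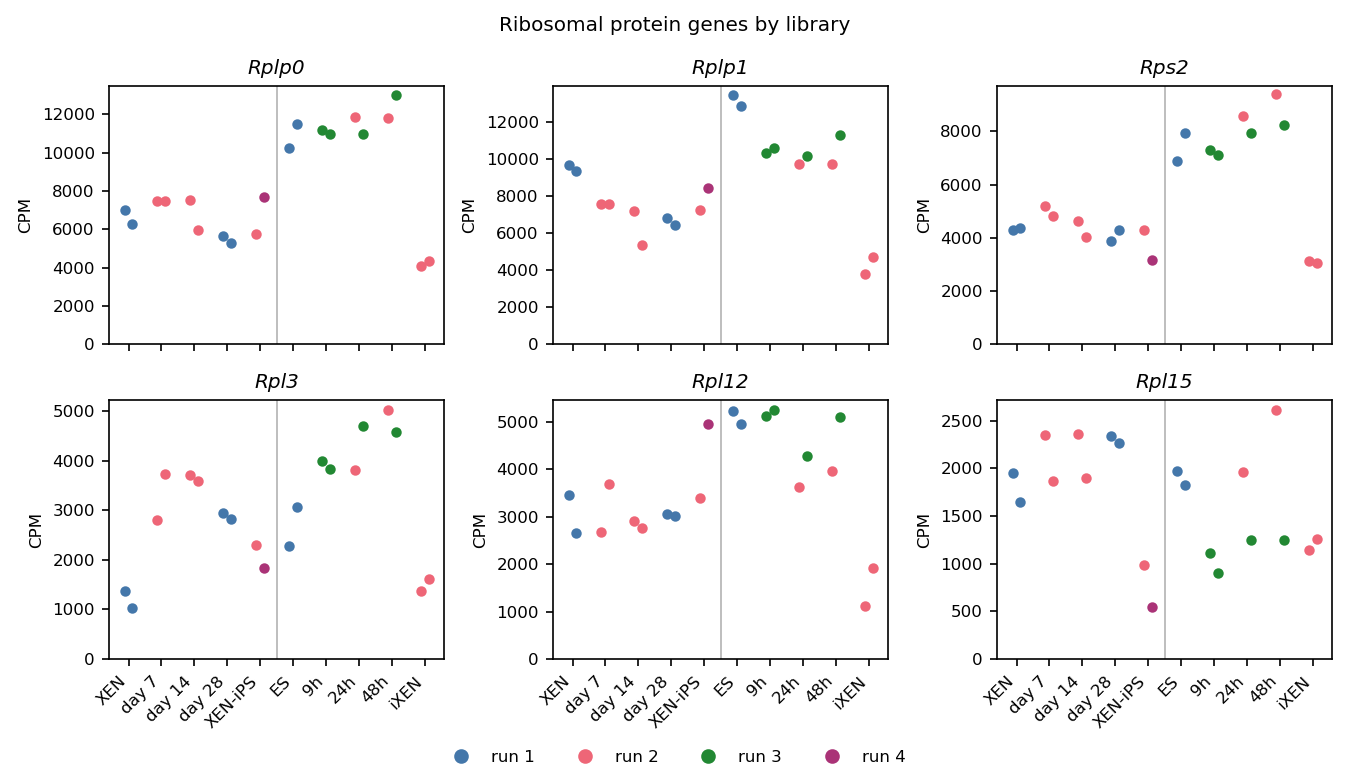
CPM of 6 ribosomal protein genes by condition, with 1 point per library coloured by run; the grey line divides the 3F-4 line from the ES line. Rplp0 and Rps2 stand high in every ES line library except iXEN, Rpl3 is lowest in XEN and iXEN, and Rpl15 has its lowest mean in XEN-iPS.

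At day 7 of reprogramming, 17 of the 87 were called higher than in XEN cells and 2 lower, beside 14.0% of all genes tested higher and 11.6% lower, and 68 were not called, with a median log2 difference of 0.27 against -0.01 over all genes. Rpl3 stood at 2805 and 3738 CPM after 1365 and 1027 in XEN, a rise of 1.45 ± 0.23 (SE, edgeR adjusted p = 0.000438) on the log2 scale. Rps4x stood at 5670.4 and 6344 after 3134 and 2251 CPM, a rise of 1.16 ± 0.22 (SE, edgeR adjusted p = 0.0019). Rps6 stood at 4672 and 5307 CPM, a rise of 1.08 ± 0.20 (SE, edgeR adjusted p = 0.00152), and for all 3 genes the libraries were fully apart. The X-linked Rpl10, which joins the large subunit last, rose by 1.08 ± 0.31 (SE, edgeR adjusted p = 0.0178) to 5604 and 5777 CPM, a call that did not hold under every alternative. The count was 10, 9 and 8 without XEN replicate 1, XEN replicate 2 and day 7 replicate 2, and this comparison crosses runs.

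From day 7 to day 14, both in run 2, no member passed edgeR's test, beside 0.472% of all genes tested called higher and 0.137% lower, and DESeq2 called none either. At an unadjusted p under 0.05 there were 3 members of 87 and 1711 of all 16754 genes. By day 28, 9 members were called higher than in XEN cells and 3 lower, beside 23.9% and 16% of all genes tested, a smaller part of the members than of all genes. This comparison lies within run 1, and the median difference was 0.20 against 0.08 over all genes. Rpl3 stayed high, at 2945 and 2832 CPM (log2 difference from XEN 1.27 ± 0.23 (SE, edgeR adjusted p = 0.000467)), and Rplp1 was lower than in XEN, at 6839.6 and 6451 after 9716 and 9355 CPM (-0.52 ± 0.19 (SE, edgeR adjusted p = 0.041), not held under every alternative). The count of 12 was 5 without XEN replicate 2, without day 28 replicate 1 or without day 28 replicate 2, and 19 on plain library totals.

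In XEN-iPS cells 8 members were called higher than in XEN cells and 2 lower, beside 29.3% and 27.2% of all genes tested, again a smaller part. The median was 0.12 against 0.00 over all genes. Rpl3, at 2296 and 1840.4 CPM, was higher by 0.79 ± 0.22 (SE, edgeR adjusted p = 0.00702), and Rps6 by 0.61 ± 0.20 (SE, edgeR adjusted p = 0.0173), and neither call held under every alternative. The scale matters here: on plain library totals 22 members were called higher and 2 lower, and the median of all genes moved from 0.00 to 0.21. The count was 5 without XEN replicate 2, 19 without XEN-iPS replicate 2, and 6 with the removed clusters kept, where the members' median was -0.01. The removed cells numbered 448 and 3829 in the 2 XEN-iPS libraries, and their part in the result was not tested.

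At day 28 the cells were a mixture, and within each library the share was highest in the pluripotent-side cells. Cells were placed by pluripotency and endoderm markers alone, none of them a member. Pluripotent-side cells (946 and 454 in the 2 libraries) had 39.2% and 38.1% of their UMIs in the members, and endoderm-side cells (2385 and 938) had 32.9% and 34.9%. The intermediate cells (2153 and 585) had 32.4% and 34.8%, close to the endoderm side in both libraries. Their median share per cell was 32.65% and 35.17%, against 32.56% and 34.11% in endoderm-side cells, so the order of these classes depended on the measure. In both libraries 61 of the 87 members were higher on the pluripotent side and 12 lower, and 14 differed between the libraries, beside 46.2% of all 16754 genes tested higher in both and 39.7% lower in both. The median log2 difference of the members, on the log2(CPM + 1) scale, was 0.27 and 0.18 in the 2 libraries, against 0.04 in each over all genes tested. The pluripotent-side cells were also deeper, with medians of 29546 and 48774 UMIs per cell against 15934 and 26546, and the part of depth in the difference was not tested. Since cells of a library share their source, no test was made.

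Single genes differed by side in these cells as well. Values of a side are CPM of the plain UMI total of its cells, without TMM, here and below. Rpl12 was at 4295 against 2649 CPM in replicate 1 and 3968 against 2685 CPM in replicate 2, pluripotent side first. Rpl7l1, a paralog of Rpl7, was at 110.4 against 62.1 CPM in replicate 1 and 108 against 57.3 CPM in replicate 2. Rpl15 went the other way, at 2089 against 2637 CPM in replicate 1 and 2058 against 2796 CPM in replicate 2. Rplp0 differed little, at 6421 against 5462 CPM in replicate 1 and 5807 against 5687 CPM in replicate 2. Of these, Rpl12, Rpl7l1 and Rplp0 were higher and Rpl15 lower on the pluripotent side in both libraries.

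In the ES-to-iXEN conversion the members were called lower mainly in established iXEN cells. At 9h the share of UMIs (37.2 and 37.5%) was close to that of the ES libraries (37.2 and 38.6%). At 24h no member was called higher than in ES cells and 1 lower, beside 8.97% and 5.22% of all genes tested. That one was Rps19bp1, an Rps19-binding protein that is not part of the ribosome, at 97.6 and 98.5 after 182 and 184 CPM (-0.90 ± 0.24 (SE, edgeR adjusted p = 0.0223)). It was not called without ES replicate 1, without ES replicate 2 or without 24h replicate 2. Rpl3 stood at 3808 and 4711 CPM after 2283 and 3063 in ES, a difference of 0.67 ± 0.22 (SE, edgeR adjusted p = 0.0566) that missed the threshold.

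From 24h to 48h no member was called higher and 1 lower, beside 6.57% and 3.95% of all genes tested. That one was Rpl3l, the muscle paralog of Rpl3, at 0.6 and 0.49 CPM after 1.38 and 1.81. Yet 75 of 87 members had a positive difference, with a median of 0.23 against 0.01 over all genes. On plain library totals 61 were positive and the median was 0.06, so the size of this shift depended on the scale. Each time has 1 library in run 2 and 1 in run 3, and with run as a term in the model 74 members were positive and the median was 0.18. Rps19, mutated in Diamond-Blackfan anaemia, was at 11468 and 9488 CPM at 24h and 15431 and 12234 at 48h, where the libraries did not overlap but the test did not call it (0.40 ± 0.21 (SE, edgeR adjusted p = 0.255)). Without any 1 of the 4 libraries, no member was called.

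In iXEN cells 62 of the 87 members were lower than in ES cells and none was higher, beside 25% of all genes tested called lower and 29.7% higher. The median was -0.85 against 0.08, and 84 members had a negative difference. Of the calls, 27 exceeded 2-fold, a count given without that of all genes tested. Rpl12 fell by 1.74 ± 0.27 (SE, edgeR adjusted p = 7.68e-05) and Rplp1 by 1.62 ± 0.20 (SE, edgeR adjusted p = 6.27e-06) on the log2 scale. Rpl13a, known also for a role in translational control outside the ribosome, was at 882 and 978 CPM in ES and 265 and 368 in iXEN libraries, a fall of 1.55 ± 0.28 (SE, edgeR adjusted p = 0.000275). Rpl5 fell by 1.48 ± 0.30 (SE, edgeR adjusted p = 0.000697), Rpsa by 1.45 ± 0.24 (SE, edgeR adjusted p = 0.000143) and Rplp0 by 1.36 ± 0.19 (SE, edgeR adjusted p = 3.14e-05). These 6 calls held under every alternative processing and without any 1 library. Members at the other end were not called: Rps19 was at 8027 and 8234 in ES and 7719 and 8736 CPM in iXEN libraries, and Rps28 at 3433 and 3312 and 3793 and 3377. On plain library totals 52 members were lower with a median of -0.60, and the median of all genes was then 0.34. The iXEN libraries were in run 2 and the ES libraries in run 1.

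The change from XEN to XEN-iPS was compared with the change from iXEN to ES by an interaction term. As signed log2 changes, that of the 3F-4 line was the lower for 26 members and the higher for 2, beside 9.23% and 18.3% of all genes tested, with a median of -0.69 against 0.19 over all genes. Among members of at least 50 CPM the lowest value was that of Rplp1, at -1.90 ± 0.27 (SE, edgeR adjusted p = 0.000264), followed by Rpl15 (-1.89 ± 0.47 (SE, edgeR adjusted p = 0.00885)) and Rpl13a (-1.71 ± 0.39 (SE, edgeR adjusted p = 0.00546)). Rps2 differed by -1.47 ± 0.27 (SE, edgeR adjusted p = 0.0013) and Rplp0 by -1.35 ± 0.27 (SE, edgeR adjusted p = 0.00251). The 28 calls were 17, 18 and 15 without ES replicate 1, ES replicate 2 and iXEN replicate 1, and 11 on plain library totals, where the median of all genes was 0.66. The lines differ in genotype, inducing transgene, culture conditions and run, which cannot be told apart.

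Single conditions were also compared across the lines. Within run 1, 29 members were higher in ES than in XEN cells and 1 was lower, beside 28.2% and 27.3% of all genes tested, with a median of 0.36 against 0.04. The count of 30 was 14, 19 and 13 without XEN replicate 2, ES replicate 1 and ES replicate 2. Between the pluripotent states, 2 members were higher and 10 lower in XEN-iPS than in ES cells, beside 12.2% and 7.78% of all genes tested (median -0.24 against 0.03). From ES to XEN-iPS cells Rps2 fell by 0.99 ± 0.19 (SE, edgeR adjusted p = 0.0025) and Rplp0 fell by 0.70 ± 0.19 (SE, edgeR adjusted p = 0.0194), and neither call held under every alternative. The 12 calls were 6, 4 and 4 without XEN-iPS replicate 2, ES replicate 1 and ES replicate 2. With only these 4 libraries in the model, 1 member was called.

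Between the endoderm states, 26 members were lower in iXEN than in XEN cells and 1 was higher, beside 10.0% and 17.0% of all genes tested, with a median of -0.55 against 0.11 over all genes. From XEN to iXEN cells Rplp1 fell by 1.16 ± 0.19 (SE, edgeR adjusted p = 0.000675), Rpsa fell by 1.02 ± 0.24 (SE, edgeR adjusted p = 0.0061) and Rpl36al fell by 1.32 ± 0.21 (SE, edgeR adjusted p = 0.000414), and these calls held under every alternative. The 27 calls were 8, 15 and 9 without XEN replicate 1, XEN replicate 2 and iXEN replicate 1. On plain library totals they were 10 (2 higher, 8 lower) with the median of all genes at 0.42, and with only these 4 libraries in the model they were 8. XEN cells came from run 1 and iXEN cells from run 2.

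**Figure D3:**
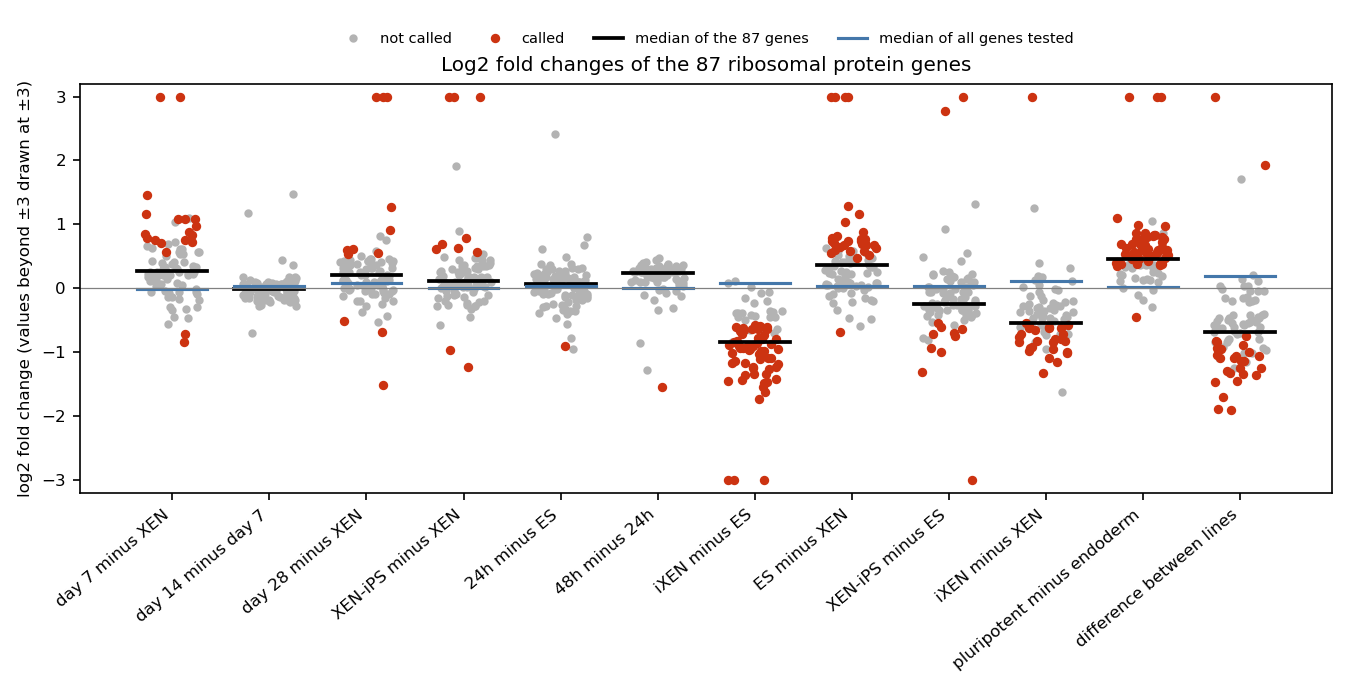
Log2 fold changes of the 87 ribosomal protein genes in the 12 comparisons, with 1 point per gene (red where called at an edgeR adjusted p under 0.05; values beyond 3 in size drawn at the edge), a black bar at their median and a blue bar at the median of all 16754 genes tested. The members lie below the other genes in iXEN minus ES, iXEN minus XEN and the difference between lines, and above them in pluripotent minus endoderm.

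Among the paralogs, Rpl10l and Rpl39l, both known best from the male germline, had their highest means over the libraries of a condition in XEN-iPS cells. Rpl10l (chr12:66283379-66284401, mm10) is an intronless copy of Rpl10. It gave 2 and 0 UMIs in the XEN libraries, 7 and 37 at day 7, 67 and 54 at day 14, 1359 and 1152 at day 28 and 1424 and 1821 in XEN-iPS libraries, or 19.3 and 34.6 CPM at the end. ES libraries gave 228 and 246 UMIs (2.20 and 1.99 CPM), 9h 169 and 170, 24h 93 and 62, 48h 32 and 33 and iXEN 3 and 0. Counts were thus highest at the end of XEN reprogramming and lowest in the XEN and iXEN libraries. The rate in XEN-iPS was 13.7 (95% interval 12.5 to 15.2) times that in ES libraries by counting error alone, and over libraries the difference was 3.69 ± 0.52 (SE, edgeR adjusted p = 0.000354) on the log2 scale. Against the 2 UMIs of XEN the rate was 36.4 (95% interval 9.49 to 309.6) times as high at day 7 and 1620.3 (95% interval 448 to 13387) times at day 28. The day 7 difference was called, at 4.92 ± 0.89 (SE, edgeR adjusted p = 0.00123) on the log2 scale, and held under every alternative. At day 28 it was at 39.0 against 0.75 CPM in replicate 1 and 46.4 against 1.00 CPM in replicate 2, pluripotent side first.

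Rpl39l (chr16:10170226-10174911), a copy of the exit tunnel protein Rpl39, was also called higher at day 7 than in XEN. It was at 1.07 and 1.07 CPM in XEN, 19.2 and 17.2 at day 7, 24.4 and 15.3 at day 14, 57.6 and 51.9 at day 28 and 33.7 and 104 in XEN-iPS libraries. Its XEN-iPS replicate 1 lay below both day 28 libraries and its replicate 2 above them. In the ES line it was at 12.5 and 7.54 in ES, 7.40 and 7.50 at 9h and 4.33 and 6.07 CPM at 24h. Its values were 3.28 and 2.46 CPM at 48h, and iXEN libraries held 0.58 and 0.6 CPM. Day 7 already exceeded both ES libraries. The log2 rise from XEN to day 7 was 4.09 ± 0.45 (SE, edgeR adjusted p = 3.35e-05), that from XEN to XEN-iPS 6.00 ± 0.48 (SE, edgeR adjusted p = 1.40e-07), and XEN-iPS exceeded ES by 2.78 ± 0.41 (SE, edgeR adjusted p = 0.000458), the last not held under every alternative. At day 28 it was at 106 against 24.6 CPM in replicate 1 and 104 against 17.9 CPM in replicate 2, pluripotent side first. RNA free in the droplets was not measured, so the endoderm-side values are not read as expression in those cells. The common partners differed less: Rpl10 was at 2103 and 3293 CPM in XEN and 4391 and 2552 in XEN-iPS libraries, and Rpl39 at 2362 and 2327 and 1875 and 4059, with overlapping libraries for both.

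Rpl3l stayed at or below 2.61 CPM in every library, with 0.073 and 0.082 CPM in XEN, 2.52 and 2.34 in XEN-iPS, 1.51 and 1.04 in ES and 0.016 and 0.032 in iXEN libraries. Its rate in ES was 16.8 (95% interval 10.3 to 29.2) times that in XEN libraries by counting error alone. Rpl22l1, which can replace Rpl22, was at 853 and 627 CPM in XEN, 1821 and 1322 at day 7, 1388 and 1388 at day 28 and 606 and 904 in XEN-iPS libraries. It rose by 1.09 ± 0.31 (SE, edgeR adjusted p = 0.0196) at day 7, a call not held under every alternative, and its XEN and XEN-iPS libraries overlapped. Rpl7l1 separated the states throughout, at 73.2 and 69.6 in XEN, 123 and 98.1 in XEN-iPS, 137 and 115 in ES and 44.5 and 54.3 CPM in iXEN libraries (0.99 ± 0.18 (SE, edgeR adjusted p = 0.000157)). Rpl36al, a copy of the X-linked Rpl36a, was at 1972 and 2264 in XEN, 1984 and 1639.6 in ES and 871 and 823 CPM in iXEN libraries, the iXEN libraries being the lowest of all conditions.

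Rps27l (chr9:66946086-66949516), a p53-responsive paralog of Rps27, was highest in XEN cells. It was at 3830.1 and 4512 CPM in XEN, 2856 and 1774.5 at day 7, 1771.1 and 1078 at day 14, 1516 and 1407 at day 28 and 1995 and 2252 in XEN-iPS libraries. The XEN libraries were above every other library of the series. It was lower at day 28 by 1.51 ± 0.26 (SE, edgeR adjusted p = 0.000404), which held under every alternative, and lower in XEN-iPS by 0.97 ± 0.26 (SE, edgeR adjusted p = 0.0049), which did not. Within day 28 the pluripotent side was the higher one for Rps27l. It was at 1925 against 1250 CPM in replicate 1 and 1912 against 1161 CPM in replicate 2, pluripotent side first. ES libraries held 2749 and 2409 and iXEN libraries 2721 and 2189 CPM. Rps27 itself was at 2171 and 2797 CPM in XEN and 3124 and 4345 at day 28, with no overlap, and the test did not call it. Rps27rt, an intronless copy, was at 761 and 706 CPM at day 28 and 510.3 and 321 in XEN libraries. The start of Rps27rt shares bases with Rps27, but the 3' ends, which the libraries count, were not compared. Reads that map to several places were resolved by the counting program, so the split between these 2 genes is uncertain.

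**Figure D4:**
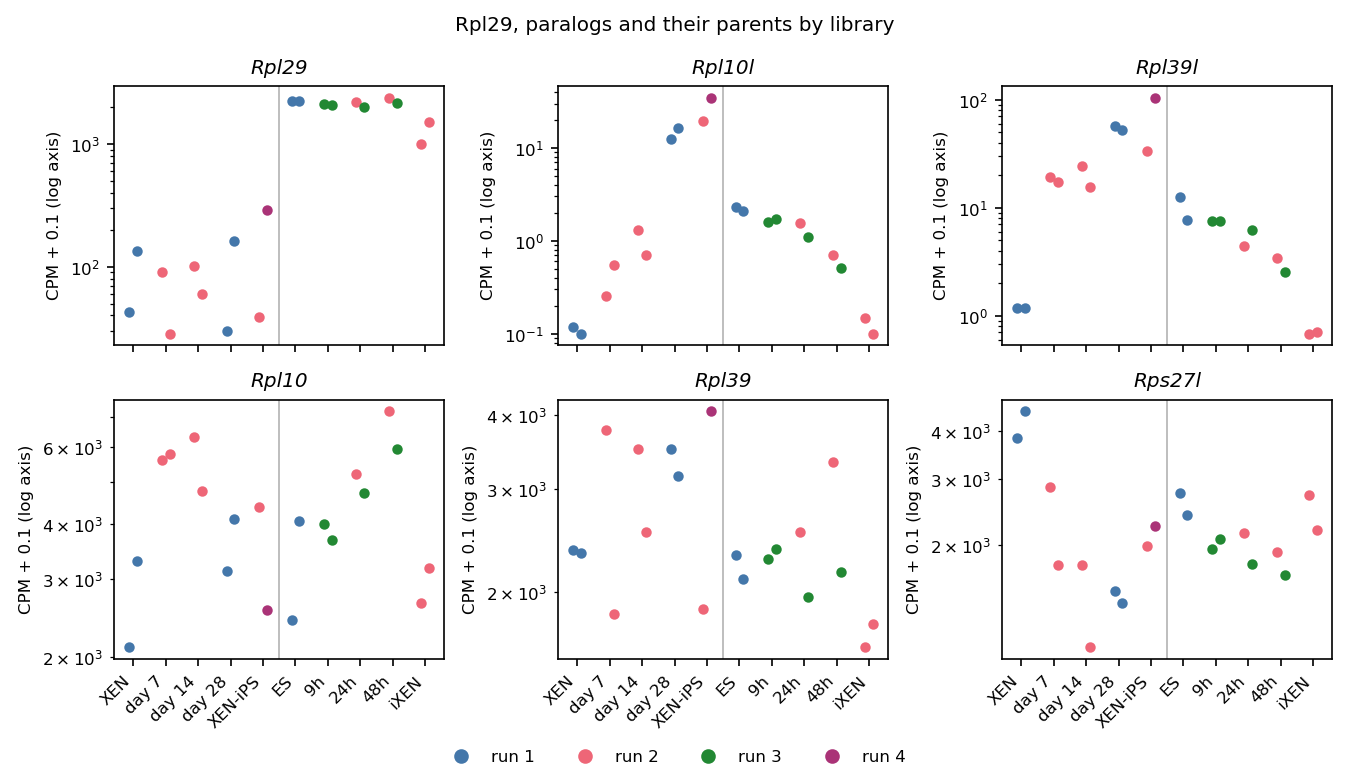
CPM plus 0.1 on log axes for Rpl29, the paralogs Rpl10l, Rpl39l and Rps27l, and the common genes Rpl10 and Rpl39 by condition, with 1 point per library coloured by run; the grey line divides the 3F-4 line from the ES line. Rpl29 falls into 2 levels that follow the cell line, Rpl10l and Rpl39l have their highest means in XEN-iPS libraries, and Rps27l is highest in XEN libraries.

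Rpl29 (chr9:106429454-106431568), a large subunit protein, separated the cell lines. Its lowest, median and highest values were 28.4, 75.2 and 288 CPM over the 10 libraries of the 3F-4 line, and 994, 2155 and 2386 CPM over the 10 of the ES line. Every 3F-4 library was below every ES line library, and the nearest pair differed 3.45-fold. No other member separated the lines, beside 0.668% of all genes tested below and 0.286% above, and 10 of all genes had at least this gap. ES exceeded XEN cells, both in run 1, by 4.68 ± 0.93 (SE, edgeR adjusted p = 0.000533), and that call held under every alternative. Within the ES line the means were 2254 CPM in ES and 1251 in iXEN libraries, without overlap. That difference was not called (-0.85 ± 0.80 (SE, edgeR adjusted p = 0.384)). XEN-iPS replicate 2, at 288 CPM, and replicate 1, at 38.5, differed by a larger ratio than any other duplicates did in this gene. Within run 1 replicate 2 was the higher one in XEN (42.2 and 134 CPM) and at day 28 (29.8 and 161). Since reads can be shared with near-identical copies of Rpl29, its level is uncertain.

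Rpl15, a large subunit protein, had its lowest mean in XEN-iPS cells. It was at 1949 and 1645 CPM in XEN, 2336 and 2265 at day 28, 985 and 540.1 in XEN-iPS and 1969 and 1823 in ES libraries. XEN-iPS was below XEN by 1.24 ± 0.34 (SE, edgeR adjusted p = 0.00552) and below ES by 1.31 ± 0.34 (SE, edgeR adjusted p = 0.0137), with no overlap, though neither call held under every alternative. Rpl15 also differed by run: at 24h it was 1963 and 1245 and at 48h 2609.7 and 1247 CPM, each time higher in the library of run 2 than in that of run 3, and 9h, all in run 3, had 1114 and 898. The XEN-iPS libraries were in runs 2 and 4, and run and condition cannot be told apart here.

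The level of Rpl6l, a copy of Rpl6, followed the run. It was between 312 and 693 CPM in the 5 libraries of runs 3 and 4 and between 34.5 and 192 in the other 15. Rpl6l is the only member that differed between the duplicates of both 24h and 48h by more than 1 on the log2 scale in the same direction, by -2.21 and -1.61 for replicate 1 over 2. Its differences between conditions are therefore not described further. The pseudogene column Rps2-ps6 showed the opposite, with 0.92 to 2.17 CPM of the plain library total in those 5 libraries and 129 to 532 in the other 15. Adding the 14 pseudogene columns to their members left the counts of called members the same in 11 of the 12 comparisons and changed the last from 28 to 29.

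The spread between duplicates was itself patterned by gene length. For the 77 canonical members, the log2 ratio of replicate 1 to 2 was correlated across genes with the log of coding length by a Pearson r of -0.69 at day 7, -0.65 at day 14, -0.38 in ES, -0.37 in iXEN, -0.27 at 48h and -0.22 at 24h, and of 0.42 at 9h, 0.40 in XEN-iPS, 0.33 in XEN and 0.23 at day 28 (n = 77 genes that share both libraries, so a description). At day 7 the 38 shorter genes had a median ratio of 0.23 and the 39 longer ones -0.21. The shortest, Rpl41 with 75 coding bases, was at 18340.0 and 10126 CPM at day 7 and 18223 and 9678 at day 14. The 9h duplicates, in 1 run, stayed within 0.31 of each other for every member of at least 50 CPM. Short members such as Rpl38 (3555 and 2113 CPM at day 7, 2433 and 4069.5 in XEN-iPS) and Rps29 (9101 and 5425 and 5606 and 10132) were higher in replicate 1 at day 7 and lower in it in XEN-iPS. Long members could lie as far apart at day 7 in the other direction, as did Rpl4 with 2491 and 4075 CPM, while Rplp0 was at 7477 and 7483.

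**Figure D5:**
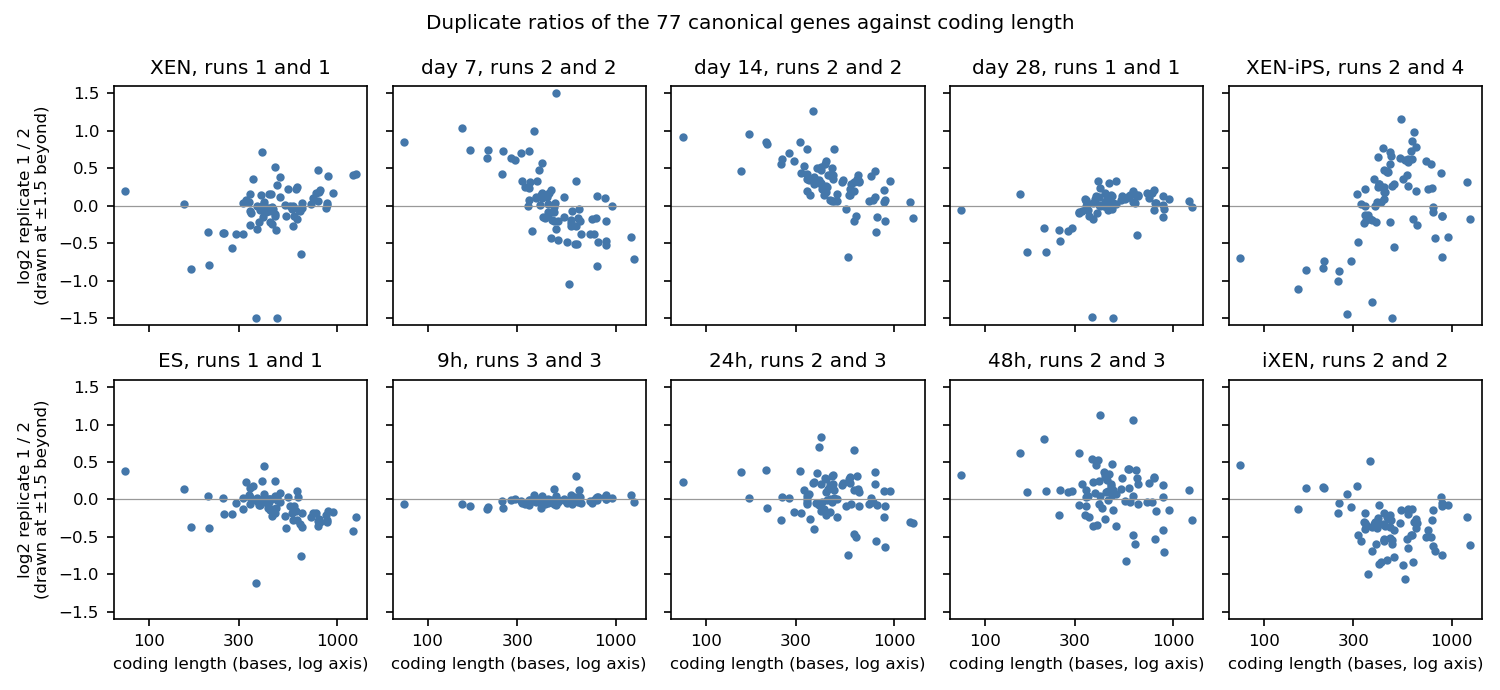
Log2 ratio of replicate 1 to replicate 2 of the 77 canonical ribosomal protein genes against coding length (bases, log axis), with 1 panel per condition, 1 point per gene, ratios beyond 1.5 in size drawn at the edge, and the runs of the 2 libraries in the title. The slope is downward at day 7 and day 14, the short genes lie low in XEN-iPS, and the points at 9h lie close to 0.

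Of 68 genes of ribosome biogenesis, 61 were called higher in the pluripotent than in the endoderm state and none lower, beside the 32.4% and 32.2% of all genes tested, with a median log2 difference of 0.92 against 0.02 over all genes. Their summed share was 1.53 and 1.40% in ES, 1.38 and 1.18% in XEN-iPS, 0.89 and 0.79% in XEN and 0.59 and 0.56% in iXEN libraries, with no overlap of the states. At 24h, 22 of them were called below ES and none above, beside 5.22% and 8.97% of all genes tested (median -0.67 against 0.03), and the share at 48h was 0.7 and 0.77%. At 48h the ribosomal protein share was thus at its highest while the biogenesis share had come near that of the endoderm libraries. At day 7, 7 were called higher than in XEN and 9 lower, beside 14.0% and 11.6% of all genes tested. In XEN-iPS cells 14 of the 68 were called higher than in XEN and none lower, beside 29.3% and 27.2%, a smaller part. In iXEN cells 63 were called lower than in ES and none higher, beside 25% and 29.7%. Ncl (nucleolin), the major nucleolar protein, was at 2489 and 2109.5 CPM in ES, 1492 and 1499 at 24h and 904 and 1092 at 48h, and iXEN libraries held 478 and 753 CPM. Dkc1, the pseudouridine synthase of rRNA, was at 37.8 and 22.2 CPM in XEN, 71.3 and 61.3 at day 28 and 129 and 149 in XEN-iPS libraries. Its rise of 2.21 ± 0.39 (SE, edgeR adjusted p = 0.000193) from XEN to XEN-iPS was the largest called in this list.

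Other TOP mRNAs, which encode elongation and initiation factors and related proteins, had 10 of 21 called higher at day 7 than in XEN and none lower, beside 14.0% and 11.6% of all genes tested (median 0.78 against -0.01), and 11 were not called. Eif3e, an initiation factor subunit, was at 133 and 84.3 CPM in XEN and 367 and 413 at day 7, a rise of 1.85 ± 0.23 (SE, edgeR adjusted p = 9.10e-05). By day 28, 6 of these 21 were called higher than in XEN and none lower, beside 23.9% and 16% of all genes tested. In XEN-iPS cells 1 was called higher than in XEN and 2 lower, beside 29.3% and 27.2%. In iXEN cells 14 were called lower than in ES cells and none higher, beside 25% and 29.7% of all genes tested. The 78 genes of the mitochondrial ribosome gave a different picture by sum and by gene: their share overlapped between the states (0.96% to 1.19% against 0.73% to 1.14%), while 40 were called higher and 7 lower in the pluripotent state, beside 32.4% and 32.2% of all genes tested. In XEN-iPS cells 14 were called higher than in XEN and 14 lower, beside 29.3% and 27.2% (median -0.06). In iXEN cells 46 were called lower than in ES cells and 1 higher, beside 25% and 29.7%.

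Of 25 regulators of ribosome production and of the response to its failure, 5 were called higher and 6 lower in the pluripotent state, a smaller part each way than the 32.4% and 32.2% of all genes tested. Trp53, which encodes p53, was at 47.6 and 51.1 CPM in XEN, 202 and 133 in XEN-iPS, 235 and 211 in ES and 65.7 and 28.4 in iXEN libraries. Cdkn1a, the p53 target that encodes p21, ran opposite, at 338 and 575, 145 and 183, 38.7 and 30.6 and 469 and 528 CPM in the same order. The difference of iXEN from ES was -2.24 ± 0.33 (SE, edgeR adjusted p = 4.17e-05) for Trp53 and 3.85 ± 0.31 (SE, edgeR adjusted p = 1.63e-07) for Cdkn1a. Myc, an activator of ribosomal genes, was at 15.4 and 16.9 CPM in ES and 4.80 and 4.05 at 24h, a fall of 1.87 ± 0.50 (SE, edgeR adjusted p = 0.0212). At that time edgeR called no member other than Rps19bp1, while DESeq2 called 3 members, and a link to Myc was not tested.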

How the data were processed

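Per the labels and the study's methods, the authors made 10x Chromium 3' v2 libraries and processed the reads with SEQC on mm10 (alignment, UMI correction, resolution of reads that map to several genes), which removed cells high in mitochondrial UMIs. The deposited values are raw UMI counts per cell and gene symbol, and 1 library was 1 file. Here cells with at least 500 genes were kept, clusters led by fibroblast or differentiation markers were removed (scanpy 1.11.5), and counts were summed per library, the unit of every test. Doublets were not removed, as no doublet call was used. All 20 libraries were fitted in 1 model with 1 mean per condition (edgeR 4.0.16, quasi-likelihood, TMM, filterByExpr, Benjamini-Hochberg over 16754 genes, threshold 0.05). The model was tested on simulated data. The planned exact tests of the shares are not printed. Gene positions and coding lengths came from GENCODE vM21 and start sequences from RefSeq, both on the build of the files. A call held "under every alternative" when it stayed past the threshold in each other fit. These were plain totals, RLE, scaling on other genes, no filter, DESeq2 1.42.0 and a replicate block. The rest were other cell filters, pseudogenes added, fewer libraries in the model and each library left out. A run block was an alternative only where both conditions compared were split over the same runs. In comparisons that cross runs, a call that held under every alternative was therefore not tested against run.

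The members and lists were chosen with earlier results of these data known, so summed shares are described without p-values. Named members were, per comparison, the 3 highest and 3 lowest log2 differences among members of at least 50 CPM, besides the paralogs with their common partners, the X-linked and stalk genes, Rpsa, Rps27a, Rps6, and members whose duplicates at 24h and 48h differed by over 1. Depth was 45446690 to 126240036 UMIs per library. Counting intervals cover counting error only. Some items are not reported here.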

Additional observations from a re-analysis of the deposited data

Results flagged for a closer look

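The change from XEN to XEN-iPS differed from the change from iXEN to ES, by the interaction term of the edgeR model, for 28 of the 87 ribosomal protein genes. The signed change in the 3F-4 line was the lower for 26 of them and the higher for 2, beside 9.23% and 18.3% of all genes tested. Among those that pass under every alternative, the difference was -1.90 on the log2 scale for Rplp1, -1.89 for Rpl15 and -1.71 for Rpl13a. For Rpl15, XEN-iPS minus XEN was -1.24 and iXEN minus ES was -0.66. The first was called, but not without XEN-iPS replicate 2 (-0.78) or with only the libraries compared in the model, and the second was not called (edgeR adjusted p = 0.107). The difference between lines in genotype, transgene, culture conditions and run cannot be told apart. In 14 sets of 4 libraries tested for a library that stands apart from the others, 0 had one. A condition has 2 libraries, so each set mixed conditions. With so few values the test could hardly flag a library, so nothing is concluded from it on single libraries or genes.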

How the results depend on the processing

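The count of ribosomal protein genes called between iXEN and ES cells, between ES and XEN cells and between the pluripotent and endoderm states stayed within 1.5 times its value under every other processing of the same libraries. From day 7 to day 14 it was 0 throughout. The other counts moved, and the cause was not tested. Counts under other settings, here and above, come without the share of all genes called in the same setting. They show only how far the calls moved. On plain library totals, day 28 minus XEN had 19 calls, XEN-iPS minus XEN 24, 24h minus ES 2, XEN-iPS minus ES 7, iXEN minus XEN 10 and the difference between lines 11. With only the libraries compared in the model, which leaves fewer libraries to estimate the spread, XEN-iPS minus XEN had 4, 24h minus ES 3, 48h minus 24h 0, XEN-iPS minus ES 1, iXEN minus XEN 8 and the difference between lines 6. DESeq2 called 29 for day 7 minus XEN, 25 for XEN-iPS minus XEN, 3 for 24h minus ES and 2 for 48h minus 24h, and RLE scaling gave 19 for XEN-iPS minus XEN. Without a filter on low counts, day 28 minus XEN had 7 and 24h minus ES 2. With the removed clusters kept, XEN-iPS minus XEN had 6, 24h minus ES 0 and 48h minus 24h 0, and the log2 difference of the pluripotent from the endoderm share of UMIs was 0.35 for all members, 0.345 for the large and 0.36 for the small subunit, 0.85 for ribosome biogenesis and 0.39 for other TOP mRNAs.

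Leaving out 1 library at a time gave 8 to 16 calls for day 7 minus XEN, 5 to 8 for day 28 minus XEN, 5 to 19 for XEN-iPS minus XEN, 0 to 1 for 24h minus ES, 0 for 48h minus 24h, 47 to 63 for iXEN minus ES, 13 to 22 for ES minus XEN, 4 to 13 for XEN-iPS minus ES, 8 to 32 for iXEN minus XEN, 42 to 64 for pluripotent minus endoderm and 15 to 37 for the difference between lines. A group left with 1 library was assumed to vary like the others. The log2 share differences ranged from 0.35 to 0.45 for all members, 0.34 to 0.46 for the large and 0.37 to 0.44 for the small subunit, -0.045 to 0.019 for the subunit ratio, 0.09 to 0.30 for mitochondrial ribosomal proteins, 0.88 to 1.102 for ribosome biogenesis and 0.39 to 0.49 for other TOP mRNAs. Of 125 calls of single named genes, 69 held under every alternative and 83 when leaving out a library is not counted. Of 1895 values of these genes under alternatives, 1651 were the same, 244 were weaker and 0 reversed.

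Replicate numbers were taken only as names: the correlation of duplicate differences between pairs of conditions ran from -0.14 to 0.32 over all genes. Over the 87 members it ran from -0.59 (XEN with day 7) to 0.87 (24h with 48h), so the duplicate differences of the members were shared between some conditions and opposite between others. With a replicate block, 24h minus ES had 2 calls, XEN-iPS minus XEN 11, ES minus XEN 28, iXEN minus ES 63, iXEN minus XEN 31 and the difference between lines 33, and the other 6 counts were the same as without it.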
